A study of Mus musculus with 40 samples.

Results

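EMT-6 is a mouse mammary carcinoma line, and 40 tumors grown from it in the mammary pad of female Balb/C mice were profiled by RNA sequencing, 1 library a mouse. All 40 of the series' 40 libraries entered the contrast described here, the interaction of 2 treatment arms, which asks whether neutralising TGF-β changed a gene differently with and without PD-L1 blockade. Groups of 10 mice received 1 of 4 proteins intravenously on days 0, 1 and 2, and tumors were collected on day 6. The group trap received 492 µg of a bifunctional fusion protein that carries an antibody to PD-L1 and a TGF-β trap. The group pdl1 received 400 µg of the antibody to PD-L1 alone. The group trap-control received 492 µg of the fusion protein with a mutated, inactive PD-L1 part and a working trap. The group control received 400 µg of the inactive antibody, which serves as the isotype control. All mice were 8 to 12 weeks old and carried tumors of about 400 mm3 when dosing began, 20 days after inoculation. The whole tumor was sequenced, so fewer cells of a type and less RNA per cell cannot be told apart. Krt8, a keratin of the carcinoma cells, was present in every group, at a mean of 310.3 ± 75.1 CPM in trap tumors and 287.5 ± 52.7 CPM in control tumors (SD, n = 10 each). CPM is a count relative to the TMM-scaled total of its library.

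PD-L1 on tumor and myeloid cells binds PD-1 on T cells and holds back their killing, and antibodies to PD-L1 release that block. TGF-β is stored in the matrix in a latent form, signals through a pair of receptors to SMAD proteins once released, and is known in tumors for driving fibroblasts to lay down matrix and for restraining T cells. The fusion protein holds the outer part of TGF-β receptor II, which binds the ligand before it can reach the cells.

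The contrast is (trap minus pdl1) minus (trap-control minus control). A positive value means that the trap's difference was higher with PD-L1 blockade than without it. The libraries were split by number into 2 sets, C0449 to C0464 (set 1) and C0465 to C0488 (set 0), and the fit held a term for the set. Library numbers run on without a gap, and the sample titles name no sets or batches. Set 1 held all 10 control and 6 of the trap-control libraries, and set 0 held the other 4 trap-control libraries with all of pdl1 and trap. With this term the interaction equals trap minus pdl1 within set 0, less trap-control minus control within set 1. The arm with PD-L1 blockade was therefore read only in set 0 and the arm without it only in set 1, so PD-L1 blockade and library set cannot be told apart in this contrast. Libraries of the sets stood apart: 4 structural RNAs (Rn7s1, Rn7s2, mt-Rnr1 and mt-Rnr2) took 11.7 to 18.0% of counts in set 0 and 29.7 to 62.3% in set 1. Total counts ran from 13495835 to 27658263 a library.

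The trap's difference depended on the arm for 1320 of 15183 genes tested (8.69%) at an adjusted p under 0.05 (edgeR quasi-likelihood test, Benjamini-Hochberg). It was higher with PD-L1 blockade for 678 genes (4.47%), with a median interaction of 0.76 on the log2 scale. It was lower with PD-L1 blockade for 642 genes (4.23%), with a median of -0.46. The median over all genes tested was 0.0372. Most called genes pointed in opposite directions in the arms. Of the 678, 607 had a positive trap minus pdl1 value and a negative trap-control minus control value, and 65 were negative in both. Of the 642, 627 were negative with PD-L1 blockade and positive without it. Opposite signs were thus found for 93.5% of called genes and for 45.8% of all genes, a difference that choosing genes by their interaction favors. The arms themselves held 3934 calls for trap minus pdl1 (25.9%) and 1568 calls for trap-control minus control (10.3%). Both counts moved with the setting. Leaving out C0479 gave 1887 calls for trap minus pdl1, leaving out C0484 gave 2362 and leaving out the pair gave 274. Trap-control minus control gave 100 calls with a GC trend removed. The cause of these changes was not tested. Among the 678 genes, 339 were called only in the arm with PD-L1 blockade, 236 only in the other arm, 17 in both and 86 in neither. Among the 642 genes these counts were 301, 185, 46 and 110. In the plot of one arm against the other, most called genes lie in the upper left and lower right quadrants.

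**Figure D1:**
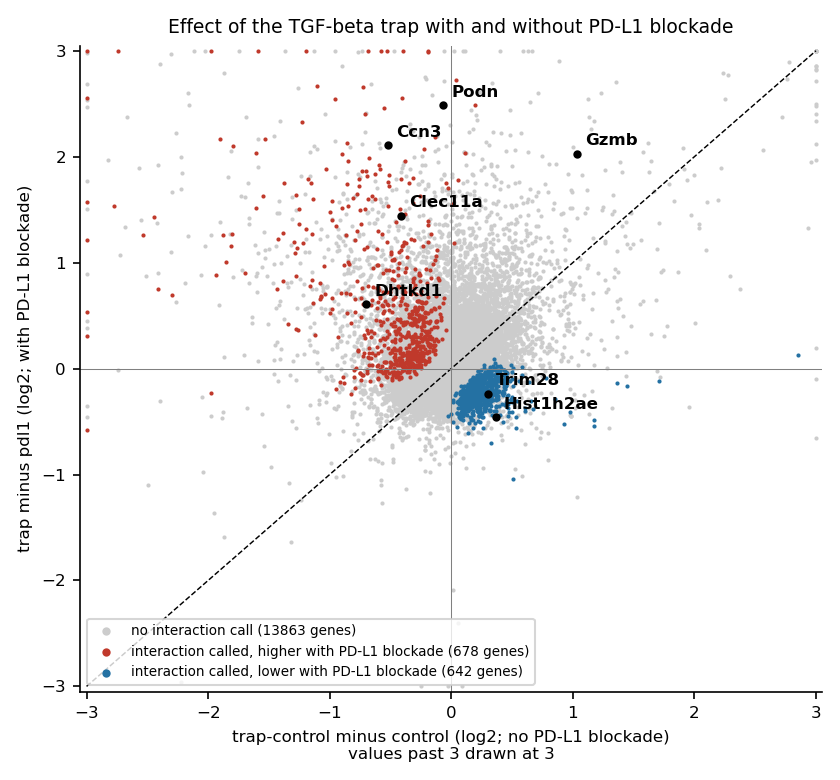
Each point is 1 of 15183 genes, with its trap-control minus control difference across and its trap minus pdl1 difference up (both log2, values past 3 drawn at 3); equal effects lie on the dashed line. The 678 genes called higher sit above the line and the 642 called lower below it, and Gzmb, which is not called, is positive in both arms.

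The 4 trap-control libraries of set 0 add to the estimate of the spread and do not enter either difference. They allow the fusion protein to be compared with its PD-L1-inactive form within 1 set, a comparison added after the values were seen. In trap minus trap-control within set 0 (n = 10 and 4), edgeR called 0 of 15183 genes (0.0%), with 2506 genes at an unadjusted p under 0.05 and a smallest count of 0 and largest of 168 when 1 of these 14 libraries was left out. The largest count came without C0482, and C0465, C0480, C0481 and C0483 gave 14, 1, 2 and 22. DESeq2 called 134 genes in the same comparison. Values of these 4 libraries stand beside many of the genes below.

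Base composition ran with the interaction. The median GC content of the transcripts was 42.5% for genes called higher, 54.5% for genes called lower and 49.6% for all genes tested, and their median lengths were 4231, 2444 and 3222 bases. Over 10 equal bins of genes ordered by GC, the median interaction was lower in each bin than in the one before, at 0.312 in the bin lowest in GC (39.4%) and -0.142 in the highest (59.5%). The trend lay in the arm without PD-L1 blockade, where trap-control minus control had a median of -0.292 in the lowest bin and 0.233 in the highest. Trap minus pdl1 had medians between -0.00758 and 0.0903 across the bins. After a smooth GC trend was removed from each library, 314 genes were called (119 higher and 195 lower), and 251 of them were among the 1320. The part of GC in any single gene's result was not tested beyond that fit.

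**Figure D2:**
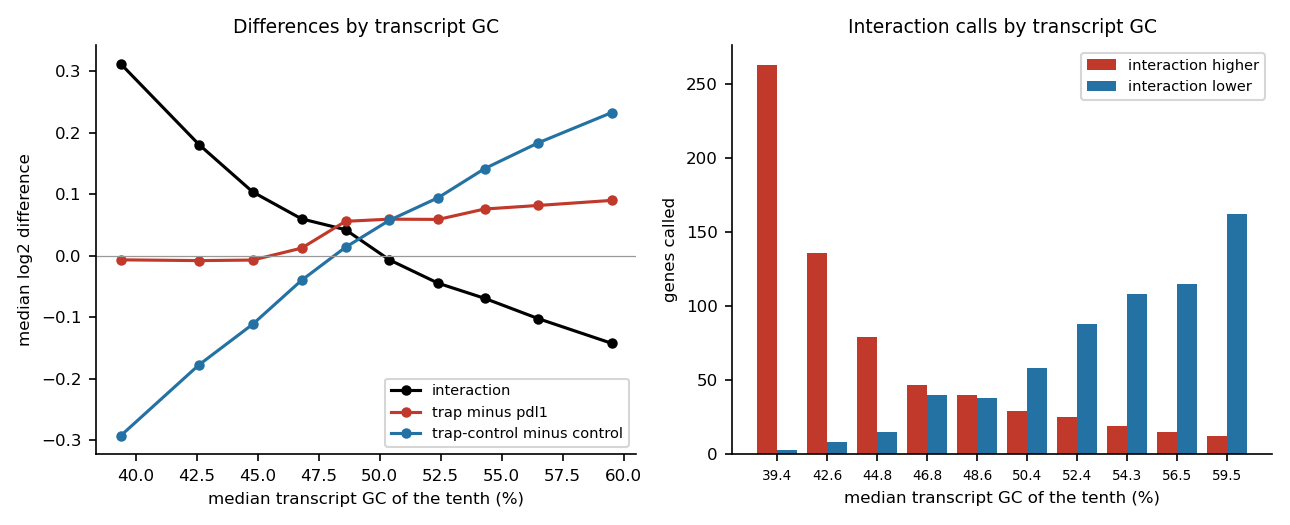
Left, the median log2 difference of genes in 10 bins of transcript GC content for the interaction and for each arm. Right, the number of genes called higher and lower in each bin; the lowest bin holds 263 calls higher and 3 lower, and the highest 12 higher and 162 lower.

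Ccn3, Podn, Pdgfrl, Clec11a and Dhtkd1, all higher with PD-L1 blockade, were called under 17 alternative settings. The 17 are all but the fit of all 40 libraries with no set term. All of these genes were also called without any 1 of the 40 libraries, and were singled out for that after their values were seen. Other genes were called in each of these settings that tested them. They were Hist2h3c1 (7.23), Gm10309 (2.21), Gm17711 (1.74), Gm17083 (1.33) and a gene without a symbol (1.41), all outside the rule for named genes. Hist2h3c1, a histone gene by its symbol, has the sign opposite to the histone list below. Ccn3, a secreted matricellular protein of the CCN family (chr15:54745702-54754039, mm10), had 10.2, 26.3 and 72.2 CPM (lowest, median and highest) in trap tumors, against 3.07, 6.86 and 17.0 CPM in pdl1 tumors. In set 1 it had 3.62, 4.98 and 10.6 CPM in trap-control tumors, against 3.75, 8.91 and 12.2 CPM in control tumors. All 10 trap tumors lay above the pdl1 median and 1 of 6 trap-control tumors above the control median, with overlap in both pairs. Its interaction was 2.63 (SE 0.579, edgeR adjusted p = 0.00872), from a trap minus pdl1 difference of 2.11 (SE 0.365) and a trap-control minus control difference of -0.52 (SE 0.442). The trap-control tumors of set 0 had 20.1, 5.53, 43.8 and 11.1 CPM of Ccn3, which overlap the trap tumors, and trap minus trap-control there was 0.72 (SE 0.479, adjusted p = 0.427).

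Podn, or podocan, a small leucine-rich proteoglycan of the matrix (chr4:108014791-108096445), followed the same course. It had 3.54, 8.74 and 38.0 CPM in trap tumors, against 1.11, 2.15 and 3.84 CPM in pdl1 tumors. Without PD-L1 blockade it had 0.682, 1.67 and 2.69 CPM in trap-control tumors, against 0.767, 1.55 and 3.77 CPM in control tumors. The first pair overlapped by a narrow margin and the second almost wholly. The interaction of Podn was 2.55 (SE 0.605, edgeR adjusted p = 0.0108), with 2.49 (SE 0.370) in the arm with PD-L1 blockade and -0.06 (SE 0.475) in the arm without it. In the trap-control tumors of set 0 Podn had 6.73, 1.55, 11.6 and 6.75 CPM, and 3 of these 4 values exceed every trap-control value of set 1.

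Clec11a, a secreted growth factor of the bone marrow stroma, had 2.15, 3.14 and 8.49 CPM in trap tumors, against 1.02, 1.42 and 2.05 CPM in pdl1 tumors, with no overlap. In trap-control tumors it had 0.581, 0.864 and 0.935 CPM, against 0.725, 0.981 and 1.77 CPM in control tumors. Its interaction was 1.86 (SE 0.399, edgeR adjusted p = 0.00804). The 4 trap-control tumors of set 0 had 2.11, 1.23, 5.27 and 1.76 CPM of Clec11a. Pdgfrl, a protein similar to the PDGF receptor, had 1.99, 4.91 and 14.8 CPM in trap tumors, against 0.935, 1.47 and 2.23 CPM in pdl1 tumors. It had 0.264, 0.537 and 2.39 CPM in trap-control tumors, against 0.242, 1.05 and 2.42 CPM in control tumors. Its interaction was 2.34 (SE 0.567, edgeR adjusted p = 0.0119). Mfap4, which binds elastic fibers and was likewise picked after its values were seen, had an interaction of 2.33 (SE 0.572, adjusted p = 0.0129).

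Dhtkd1, a mitochondrial enzyme of lysine breakdown, differed in both arms, in opposite directions. It had 1.27, 2.28 and 5.27 CPM in trap tumors, against 1.29, 1.77 and 2.3 CPM in pdl1 tumors. It had 3.30, 4.49 and 8.56 CPM in trap-control tumors, against 5.84, 7.94 and 11.7 CPM in control tumors. Its differences were 0.61 with PD-L1 blockade (SE 0.187, edgeR adjusted p = 0.0183) and -0.70 without it (SE 0.219, adjusted p = 0.0338), which gave an interaction of 1.31 (SE 0.289, adjusted p = 0.00872). Both sets' levels of Dhtkd1 lay apart: the 4 trap-control tumors of set 0 had 1.96, 1.76, 1.97 and 1.55 CPM, below each of the 6 of set 1.

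**Figure D3:**
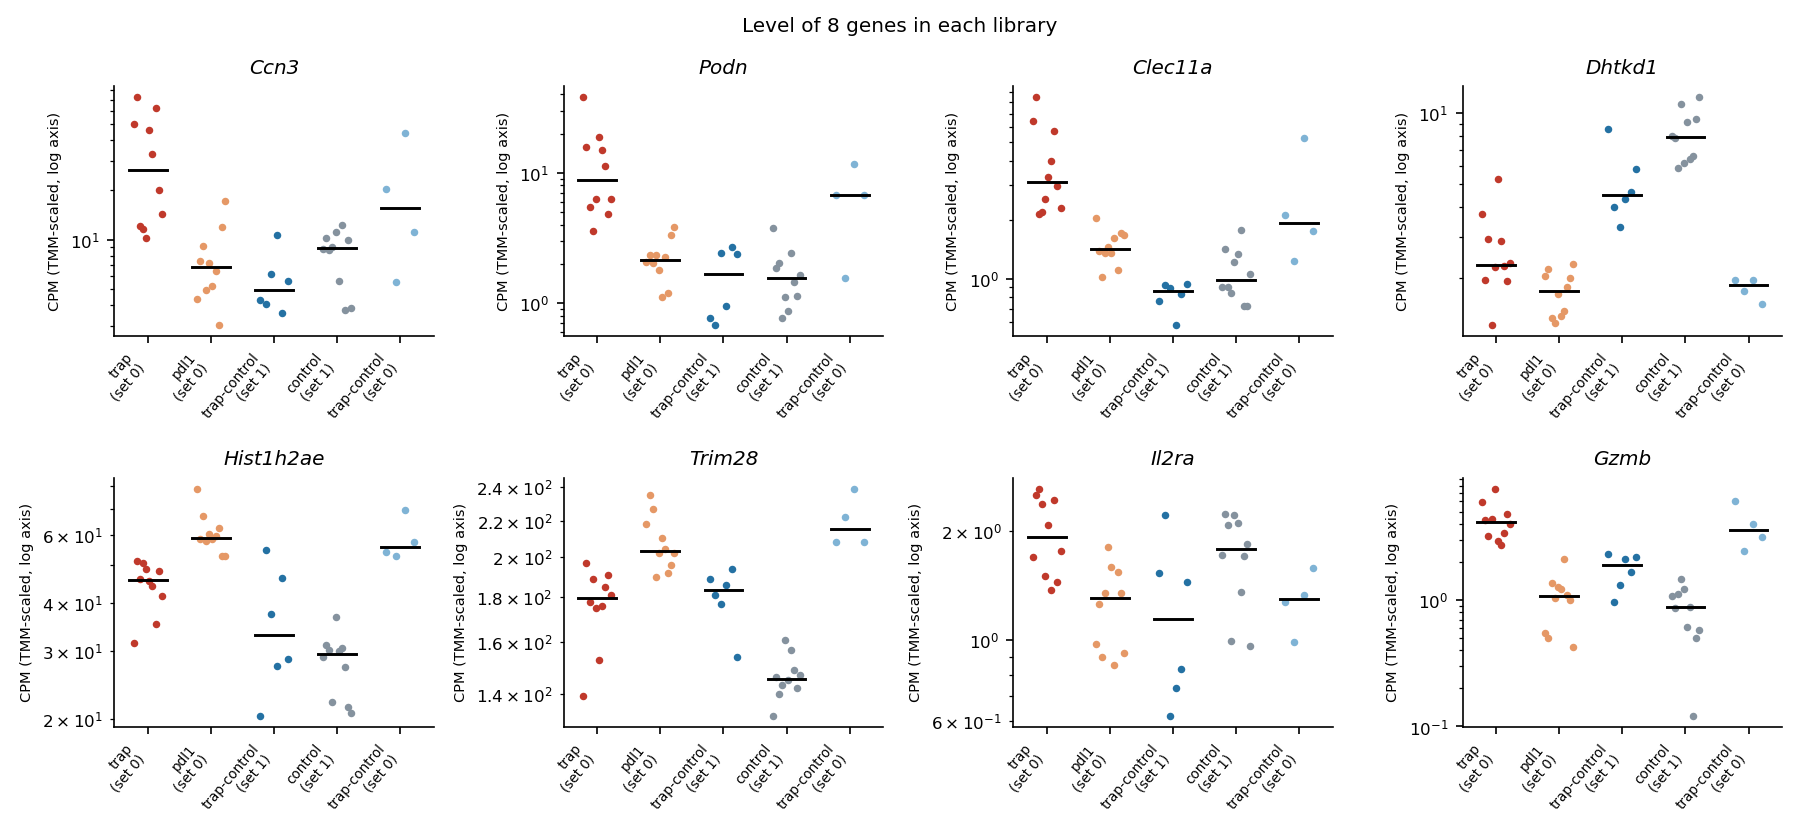
CPM on a log axis for 8 genes, with 1 point a library and a bar at the median, in trap and pdl1 (set 0), trap-control and control (set 1) and the 4 trap-control libraries of set 0. Podn has medians of 8.74, 2.15, 1.67, 1.55 and 6.74 CPM in that order, and Gzmb 4.16, 1.07, 1.89, 0.875 and 3.58 CPM.

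In each matrix list 1 to 3 members were called higher, where 4.47% of all genes were called higher. Of 22 genes for matrix proteins other than collagens and for crosslinking, 3 were called higher (Postn, Lox and Bgn) and none lower, with a median interaction of 0.464 beside 0.0372 over all genes. That count was 0 without C0460, without C0479 and C0484 (median 0.247), with the GC trend removed and with host tissue covariates. With DESeq2 it was 5, where 971 of all 15183 genes were called higher. Of 21 collagens 1 was called higher, Col11a1, and 12 had a positive value, with a list median of 0.219, or 0.022 without C0479 and C0484. Of 13 fibroblast genes 1 was called higher, the transcription factor Prrx1 (0.51, SE 0.164, edgeR adjusted p = 0.0444), with a list median of 0.771. The Prrx1 call was lost without any 1 of 20 of the 40 libraries, without C0479 and C0484 (0.38, adjusted p = 0.129) and with the GC trend removed (0.40, adjusted p = 0.145). Fibroblast genes summed to 878 to 1630 CPM in trap tumors and 677 to 1270 CPM in pdl1 tumors. In set 1 they summed to 594 to 1120 CPM in trap-control tumors and 663 to 1050 CPM in control tumors. The part of fibroblast content in these results was not tested.

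Col11a1, a chain of a fibrillar collagen, had 2.10, 9.62 and 89.7 CPM in trap tumors, against 1.97, 3.14 and 4.77 CPM in pdl1 tumors, and its interaction was 3.11 (SE 0.855, edgeR adjusted p = 0.0224). It had 0.634, 1.88 and 6.55 CPM in trap-control tumors, against 0.153, 2.75 and 10.2 CPM in control tumors. Postn, or periostin, an adhesion protein of activated fibroblasts, had 220.0, 395 and 804 CPM in trap tumors, against 138, 296 and 622 CPM in pdl1 tumors. It had 65.4, 91.9 and 200 CPM in trap-control tumors, against 57.3, 219 and 359 CPM in control tumors, and all 6 trap-control values lay below the control median. Its interaction was 1.52 (SE 0.442, adjusted p = 0.0294), while neither arm alone passed (adjusted p = 0.164 with and 0.0527 without PD-L1 blockade). The Postn call was lost without C0459, C0460, C0462 or C0479, and with the GC trend removed (1.15, adjusted p = 0.112). Bgn, the proteoglycan biglycan, had an interaction of 1.58 (SE 0.497, adjusted p = 0.041), which the GC correction left at 1.62 (adjusted p = 0.0631). The Bgn call was lost without any 1 of 16 of the 40 libraries, and the call of Lox, an enzyme that crosslinks collagen, without any 1 of 15. Lox had 1.03 (adjusted p = 0.0883) with the GC trend removed. Col1a1, the main fibrillar collagen chain, averaged 2650 ± 1450 CPM in trap tumors and 1360 ± 518 CPM in pdl1 tumors (SD, n = 10 each). It averaged 2740 ± 631 CPM in trap-control tumors of set 1 (SD, n = 6) and 2080 ± 654 CPM in control tumors (SD, n = 10). Its interaction of 0.57 did not pass (adjusted p = 0.352, 95% interval -0.23 to 1.37).

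Histone genes that are expressed with DNA replication formed the list with the most calls among the genes lower with PD-L1 blockade. Most of their transcripts lack a poly(A) tail, and the libraries here were made from ribosome-depleted RNA with random primers. The part of the library method in their levels was not tested. Promoters of 3 called members are shown for 2 motifs known from such genes, of which Hist1h3c holds CCAAT only. The windows run from 250 bases before to 50 bases after the start in RefSeq (GRCm38.p6), 5′ to 3′ on the gene's strand. Capitals mark the strings TATAAA, found in TATA boxes, and CCAAT, found in CCAAT boxes. Each was searched on either strand and anywhere in the window (TTTATA and ATTGG when read on the other strand). In Hist1h2ae the marked TATAAA lies on the other strand. Whether a marked string acts as a box of the gene was not tested.
Hist1h2ae (chr13:23571171-23571470, minus strand): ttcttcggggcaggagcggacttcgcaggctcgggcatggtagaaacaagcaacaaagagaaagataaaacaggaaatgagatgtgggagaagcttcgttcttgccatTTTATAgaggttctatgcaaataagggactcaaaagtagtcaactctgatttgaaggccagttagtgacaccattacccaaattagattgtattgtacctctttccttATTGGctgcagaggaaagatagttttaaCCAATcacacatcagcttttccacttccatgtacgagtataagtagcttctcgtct
Hist2h2ac (chr3:96220831-96221130, minus strand): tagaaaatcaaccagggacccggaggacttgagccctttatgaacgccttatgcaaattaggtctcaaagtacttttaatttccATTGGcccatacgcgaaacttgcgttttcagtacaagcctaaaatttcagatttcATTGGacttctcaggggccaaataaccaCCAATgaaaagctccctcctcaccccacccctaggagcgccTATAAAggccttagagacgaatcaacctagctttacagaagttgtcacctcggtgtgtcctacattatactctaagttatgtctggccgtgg
Hist1h3c (chr13:23745472-23745771, minus strand): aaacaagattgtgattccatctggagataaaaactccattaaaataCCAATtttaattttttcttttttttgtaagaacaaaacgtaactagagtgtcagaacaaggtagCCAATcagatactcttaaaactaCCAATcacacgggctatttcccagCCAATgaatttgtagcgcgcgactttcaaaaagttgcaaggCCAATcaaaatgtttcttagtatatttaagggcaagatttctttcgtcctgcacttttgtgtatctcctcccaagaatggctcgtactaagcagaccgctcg
The string CCAAT was found in 15 of the 16 list members that have a window (93.8%) and in 37.9% of windows of all 27025 genes. TATAAA was found in 10 of the 16 (62.5%) and in 14.2% of all windows.

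Of 17 histone genes measured, 11 were called lower in the interaction and none higher, where 4.23% of all genes were called lower. The list's median was -0.565 and every member's value was negative. In trap minus pdl1 7 members were called lower (10.1% of all genes were), and in trap-control minus control 2 were called higher (4.47% of all genes were) and 0 lower (5.86% were), with medians of -0.305 and 0.258. Histone genes include near-identical copies between which the counting shares reads, so the values of single genes are uncertain. Hist1h2ae, which codes for histone H2A, had 31.5, 45.8 and 51.2 CPM in trap tumors, against 52.7, 59.0 and 78.8 CPM in pdl1 tumors, with no overlap. It had 20.4, 33.1 and 54.8 CPM in trap-control tumors, against 20.8, 29.5 and 36.8 CPM in control tumors. Its interaction was -0.82 (SE 0.186, edgeR adjusted p = 0.00998), and -0.74 with the GC trend removed (adjusted p = 0.035). The trap-control tumors of set 0 had 54.1, 52.8, 69.3 and 57.3 CPM of Hist1h2ae, all above every trap tumor. Hist1h2bc, which codes for histone H2B, had 71.9, 94.8 and 108 CPM in trap tumors, against 92.7, 111 and 135 CPM in pdl1 tumors. In trap-control tumors it had 58.5, 66.4 and 90.3 CPM, against 45.5, 54.3 and 64.6 CPM in control tumors, and all 6 lay above the control median. Its interaction was -0.60 (SE 0.122, adjusted p = 0.00606). Hist2h2ac and Hist1h3c had interactions of -0.84 (SE 0.197, adjusted p = 0.0104) and -0.68 (SE 0.175, adjusted p = 0.0168), and with the GC trend removed -0.67 (adjusted p = 0.0714) and -0.57 (adjusted p = 0.0776). Over all genes, 195 were called lower with the GC trend removed, 300 without C0479 and C0484, and 265 without C0460. The number of histone genes called was 4, 5 and 3 in these settings. It was 5 to 7 without any 1 of C0449, C0452, C0458, C0461, C0463, C0469, C0471, C0479 or C0484.

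Genes of the dividing cell and of the respiratory chain leaned the same way by smaller amounts. Of 26 proliferation genes 2 were called lower (4.23% of all genes were) and none higher, with a median of -0.292 and a positive value for 2. In trap minus pdl1, 19 of the 26 were called lower (10.1% of all genes were), against 0 in trap-control minus control. Aurkb, the mitotic kinase Aurora B, had 17.7, 24.0 and 28.2 CPM in trap tumors, against 26.1, 30.9 and 36.6 CPM in pdl1 tumors. It had 15.7, 21.4 and 28.8 CPM in trap-control tumors, against 15.1, 19.1 and 23.1 CPM in control tumors. Every trap value was below the pdl1 median. Its interaction was -0.53 (SE 0.136, edgeR adjusted p = 0.0169), and the call was lost without C0460 (-0.42, adjusted p = 0.0619) and with the GC trend removed (-0.46, adjusted p = 0.0545). The other called member was Mcm5, of the replicative helicase (-0.57, SE 0.179, adjusted p = 0.0414). The Mcm5 call was lost without any 1 of 17 of the 40 libraries, without C0479 and C0484 (-0.50, adjusted p = 0.0913) and with the GC trend removed (-0.51, adjusted p = 0.0956). Of 19 nuclear genes of the respiratory chain 4 were called lower (4.23% of all genes were) and none higher, with a median of -0.258. That count was 1 without C0460, 1 with the GC trend removed and 0 without C0479 and C0484. They included Cox4i1 of cytochrome oxidase (-0.45, SE 0.119, adjusted p = 0.0183), and Atp5a1 and Atp5b of the ATP synthase (-0.34 and -0.38). With the GC trend removed Cox4i1 (-0.33, adjusted p = 0.118), Atp5a1 (-0.25, adjusted p = 0.155) and Atp5b (-0.33, adjusted p = 0.1) no longer passed.

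Among the TGF-β ligands none was called. Tgfb1, the ligand found most widely in tumors, had an interaction of 0.33 (edgeR adjusted p = 0.265, 95% interval -0.06 to 0.72), Tgfb2 of -0.10 (adjusted p = 0.867, -0.76 to 0.55) and Tgfb3 of -0.43 (adjusted p = 0.301, -0.97 to 0.12). Tgfb1 had 11.6, 16.6 and 25.6 CPM in trap tumors, against 9.76, 13.4 and 15.2 CPM in pdl1 tumors. It had 30.3, 41.9 and 43.3 CPM in trap-control tumors, against 30.7, 37.3 and 42.6 CPM in control tumors, so every value of set 1 lay above every trap and pdl1 value. Of the receptors, Tgfbr1, the kinase that phosphorylates SMADs, was the 1 member of 8 ligands and receptors called (8.69% of all genes were). It had 26.1, 44.3 and 58.3 CPM in trap tumors, against 30.0, 38.0 and 49.3 CPM in pdl1 tumors. It had 22.8, 29.6 and 48.4 CPM in trap-control tumors, against 34.7, 41.9 and 62.2 CPM in control tumors. The groups overlapped in both arms, and neither arm was called. Its interaction was 0.66 (SE 0.213, adjusted p = 0.0451), and the call was lost when any 1 of 20 of the 40 libraries was left out, with values from 0.58 to 0.81. Removing the GC trend gave 0.46 (adjusted p = 0.163). The 4 trap-control tumors of set 0 had Tgfbr1 at 37.3, 29.1, 36.5 and 36.2 CPM. Tgfbr2, the receptor that binds the ligand and whose outer part makes the trap, had an interaction of 0.03 (adjusted p = 0.934, 95% interval -0.29 to 0.35). None of 12 genes for latent storage and activation was called by edgeR or DESeq2, with 2 at an unadjusted p under 0.05 and a list median of 0.175. With host tissue covariates 1 was called higher.

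Downstream, 1 of 21 SMAD mediators and TGF-β target genes was called (8.69% of all genes were). This was Id3, an inhibitor of basic helix-loop-helix factors that BMP and TGF-β signals control. Id3 had 26, 35.7 and 52.4 CPM in trap tumors, against 28.9, 42.0 and 47.5 CPM in pdl1 tumors. It had 34.4, 37.5 and 56.5 CPM in trap-control tumors, against 17.0, 30.0 and 37.2 CPM in control tumors, with all 6 above the control median. Its interaction was -0.67 (SE 0.211, edgeR adjusted p = 0.0411), and the call was kept without 26 of the 40 libraries in turn. It was lost with the GC trend removed (-0.58, adjusted p = 0.103).

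None of 6 PD-1 pathway genes was called in the interaction by edgeR, DESeq2 or limma on TPM, and 1 had an unadjusted p under 0.05 in edgeR. Cd274, which encodes PD-L1 itself, had 6.84, 11.2 and 30.2 CPM in trap tumors, against 3.84, 7.04 and 11.9 CPM in pdl1 tumors. It had 7.05, 13.1 and 17.1 CPM in trap-control tumors, against 6.5, 10.3 and 14.5 CPM in control tumors. The trap minus pdl1 difference passed (0.78, SE 0.247, edgeR adjusted p = 0.021) and the interaction did not (0.53, adjusted p = 0.371, 95% interval -0.24 to 1.31). Pdcd1, which encodes PD-1, had an interaction of 0.39 (adjusted p = 0.697, 95% interval -0.78 to 1.56).

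Of 12 cytotoxic effector genes edgeR called none in the interaction, with 4 at an unadjusted p under 0.05, all higher, and a list median of 1.03. DESeq2 called 1 of them higher, limma on log2(TPM + 1) called 4, and the same after TMM scaling called 3. Over all 15183 genes these settings called 971, 52 and 443 higher. In trap minus pdl1, 10 of the 12 were called higher (15.8% of all genes were) with a median of 1.92, and in trap-control minus control 1 was called higher (4.47% of all genes were) with a median of 0.60. Gzmb, the granule protease granzyme B, had 2.72, 4.16 and 7.55 CPM in trap tumors, against 0.427, 1.07 and 2.09 CPM in pdl1 tumors, with no overlap. It had 0.963, 1.89 and 2.3 CPM in trap-control tumors, against 0.121, 0.875 and 1.46 CPM in control tumors, with all 6 above the control median. Gzmb passed in both arms, at 2.03 with PD-L1 blockade (SE 0.267, edgeR adjusted p = 5.4e-05) and 1.04 without it (SE 0.329, adjusted p = 0.0369). The interaction was 0.99 (SE 0.427, adjusted p = 0.124, 95% interval 0.13 to 1.86). The 4 trap-control tumors of set 0 had 6.07, 2.43, 4.01 and 3.14 CPM of Gzmb, all above the highest of set 1, and trap minus trap-control there was 0.14 (SE 0.337). Prf1, the pore-forming perforin, had 2.3, 3.92 and 8.73 CPM in trap tumors, against 0.301, 1.03 and 2.61 CPM in pdl1 tumors. It had 0.562, 1.71 and 2.48 CPM in trap-control tumors, against 0.121, 1.23 and 1.83 CPM in control tumors. Its interaction of 1.42 did not pass (SE 0.555, adjusted p = 0.0932).

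Among T cell genes 2 of 15 were called higher (4.47% of all genes were), with a list median of 1.03. They were Cd5, a receptor that tunes T cell receptor signals (1.51, SE 0.479, edgeR adjusted p = 0.0421, a call kept without 21 of the 40 libraries in turn), and Bcl11b, a transcription factor of T cells that skin also expresses (3.17, SE 1.04, adjusted p = 0.0487). The highest Bcl11b value, 21.9 CPM, stood in the trap tumor C0479, and the Bcl11b call was kept without 13 of the 40 libraries in turn. Both missed the threshold with the GC trend removed, Cd5 at 1.62 (adjusted p = 0.06) and Bcl11b at 3.19 (adjusted p = 0.0776). Cd8a, the co-receptor of killer T cells, had an interaction of 0.75 (adjusted p = 0.458, 95% interval -0.53 to 2.04). The T cell list summed to 15.2 to 45.6 CPM in trap tumors and 13.5 to 19.9 CPM in pdl1 tumors. It summed to 9.20 to 23.9 CPM in trap-control tumors and 12.4 to 27.4 CPM in control tumors. Of 7 regulatory T cell genes 1 was called higher (4.47% of all genes were), Il2ra, the high-affinity chain of the interleukin-2 receptor. Il2ra had 1.37, 1.92 and 2.61 CPM in trap tumors, against 0.854, 1.31 and 1.81 CPM in pdl1 tumors, and all 10 trap tumors lay above the pdl1 median. It had 0.618, 1.15 and 2.21 CPM in trap-control tumors, against 0.964, 1.78 and 2.22 CPM in control tumors, with 1 of 6 above the control median. Its interaction was 1.14 (SE 0.309, adjusted p = 0.0215), it was called without each library in turn, and it missed the threshold with the GC trend removed (1.05, adjusted p = 0.0545). The trap-control tumors of set 0 had 1.27, 0.986, 1.33 and 1.58 CPM of Il2ra. Foxp3, the factor that defines regulatory T cells, had an interaction of 0.52 (adjusted p = 0.572). Cish, a feedback inhibitor of interleukin-2 signaling picked after its values were seen, had an interaction of 1.59 (SE 0.364, adjusted p = 0.0102). It had 0.956, 1.17 and 4.22 CPM in trap tumors, against 0.455, 0.750 and 1.19 CPM in pdl1 tumors. It had 0.634, 0.926 and 1.15 CPM in trap-control tumors, against 0.969, 1.38 and 1.83 CPM in control tumors.

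Few interferon genes were called. Neither edgeR nor DESeq2 called any of 25 type I interferon genes in the interaction (median 0.263, 2 at an unadjusted p under 0.05 in edgeR). In edgeR 21 of them were called higher in trap minus pdl1 (15.8% of all genes were) and 0 in trap-control minus control (4.47% were), at medians of 0.52 and 0.342. Irf7, a transcription factor of the type I response, had an interaction of 0.49 (edgeR adjusted p = 0.201, 95% interval -0.02 to 1.01). Of 22 interferon-γ genes 1 was called (8.69% of all genes were), the receptor chain Ifngr2 (0.35, SE 0.115, adjusted p = 0.0497). The Ifngr2 call was kept without 11 of the 40 libraries in turn and lost with the GC trend removed (0.37, adjusted p = 0.0656). Cxcl9, a chemokine for T cells, had an interaction of 0.64 (adjusted p = 0.555). None of 20 macrophage genes was called by edgeR or DESeq2, with 1 at an unadjusted p under 0.05 in edgeR, a median of 0.356 and a positive value for all 20.

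Of 14 genes for MHC class I presentation 2 were called lower (4.23% of all genes were), both of the immunoproteasome. Psmb10 had 54.9, 83.2 and 107 CPM in trap tumors, against 74.7, 86.2 and 107 CPM in pdl1 tumors. It had 51.7, 65.2 and 69.3 CPM in trap-control tumors, against 26.6, 41.8 and 62.5 CPM in control tumors, with all 6 above the control median. Its interaction was -0.59 (SE 0.172, edgeR adjusted p = 0.0296), from a difference of -0.09 with PD-L1 blockade and 0.50 without it (adjusted p = 0.0118). The call was lost without C0460 (-0.58, adjusted p = 0.0621) and with the GC trend removed (-0.48, adjusted p = 0.113). Psmb8 had an interaction of -0.43 (SE 0.133, adjusted p = 0.0375), a call kept without 28 of the 40 libraries in turn and lost with the GC trend removed (-0.37, adjusted p = 0.114).

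**Figure D4:**
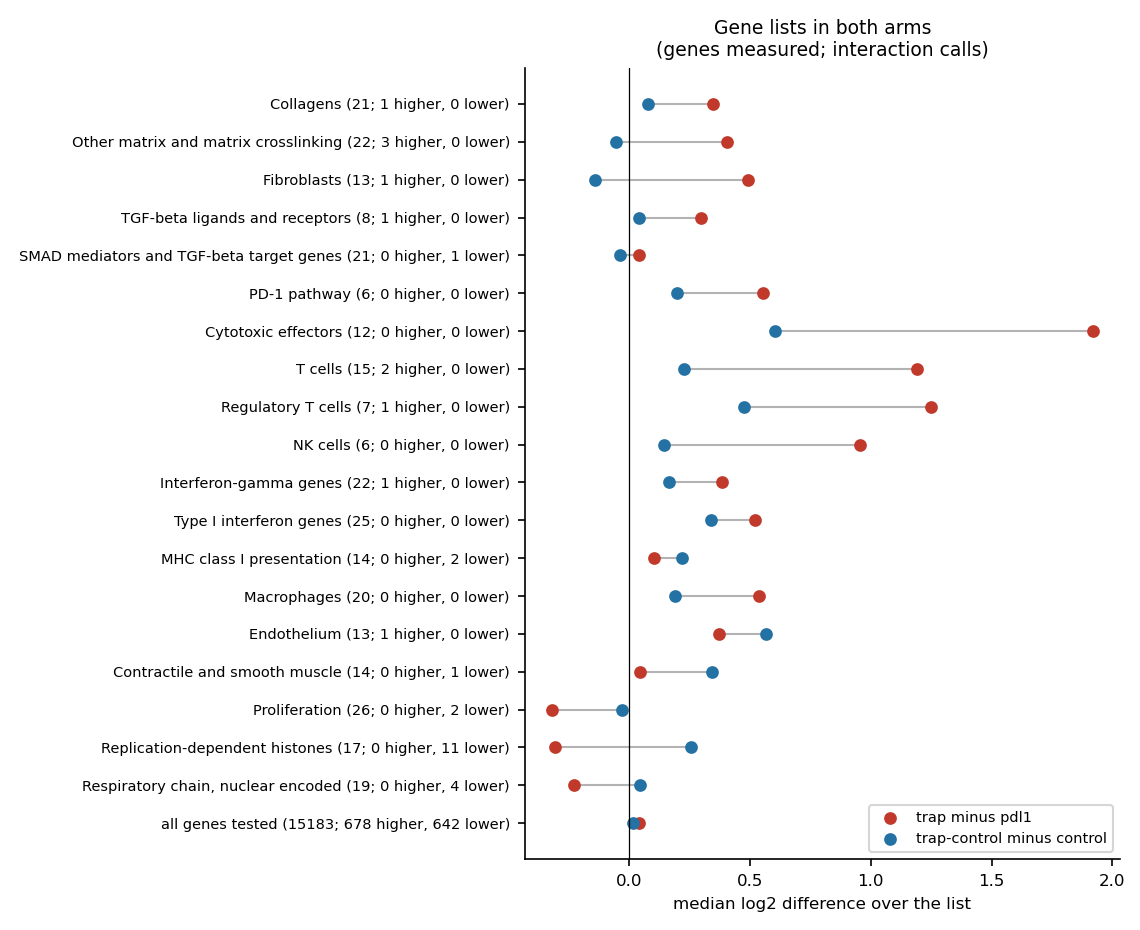
Median log2 difference over the members of 19 gene lists and over all genes, for trap minus pdl1 and for trap-control minus control, with the genes measured and the interaction calls beside each name. The cytotoxic list has medians of 1.92 and 0.60 with no member called by edgeR; the histone list has medians of -0.305 and 0.258 with 11 members called lower.

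The genes with the smallest p-values had smaller differences than the matrix genes above. Among those lower with PD-L1 blockade they were Trim28, Noc2l, Txlna, Mad1l1, Gpn2, Fbxl19, Nde1, U2af2, Fbxw8 and Ppp1r14b, with interactions from -0.67 (Mad1l1) to -0.38 (Fbxw8). All but Ppp1r14b stayed called with the GC trend removed. Trim28 (chr7:12999114-13031035), the corepressor that zinc finger proteins with a KRAB domain recruit, had 139, 180.0 and 197 CPM in trap tumors, against 190.0, 203 and 235 CPM in pdl1 tumors. It had 154, 184 and 194 CPM in trap-control tumors, against 132, 146 and 161 CPM in control tumors. All trap tumors lay below the pdl1 median and all 6 trap-control tumors above the control median. Its interaction was -0.54 (SE 0.0839, edgeR adjusted p = 0.00228), from -0.24 and 0.30 in the arms, and it was -0.38 with the GC trend removed (adjusted p = 0.0315). In the trap-control tumors of set 0 it had 208, 222, 239 and 208 CPM, above every trap tumor. Noc2l, an inhibitor of histone acetylation, had an interaction of -0.58 (SE 0.0977, adjusted p = 0.00239). Txlna, a syntaxin-binding protein, had an interaction of -0.41 (SE 0.0689, adjusted p = 0.00239), with 0.01 in the arm with PD-L1 blockade and 0.41 in the arm without it. It had 60.0, 65.2 and 73.1 CPM in trap tumors, against 58.9, 66.2 and 70.5 CPM in pdl1 tumors. It had 65.8, 69.9 and 79.0 CPM in trap-control tumors, against 47.2, 54.2 and 56.5 CPM in control tumors, with no overlap.

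Among genes higher with PD-L1 blockade the smallest p-values were those of Rnf13, AW549877, Rpia, Ssbp2, Zfp935, Zbtb8os, Dbhos, Fam126b, Lamp2 and Zfp738, with interactions from 0.49 (Rnf13) to 1.07 (Dbhos). With the GC trend removed 6 of these 10 were called, the exceptions being Rnf13, Fam126b, Lamp2 and Zfp738. Dbhos is an antisense gene, and the strand used in counting is not given in the sources used here, so reads of its partner gene cannot be told apart. Rnf13 (chr3:57736062-57835233), a ubiquitin ligase of endosomes, had 49.3, 57.9 and 61.4 CPM in trap tumors, against 48.8, 52.5 and 61.9 CPM in pdl1 tumors. It had 45.4, 47.1 and 54.3 CPM in trap-control tumors, against 57.1, 63.4 and 73.7 CPM in control tumors, with no overlap. Its interaction of 0.49 (SE 0.0835, edgeR adjusted p = 0.00239) fell to 0.18 with the GC trend removed (adjusted p = 0.11). Lamp2, a lysosomal membrane protein, had 159, 177 and 283 CPM in trap tumors, against 142, 156 and 190.0 CPM in pdl1 tumors. It had 111, 136 and 157 CPM in trap-control tumors, against 155, 173 and 225 CPM in control tumors. It differed in both arms, by 0.31 (adjusted p = 0.0108) and -0.36 (adjusted p = 0.0195), and its interaction was 0.67 (SE 0.134, adjusted p = 0.00568). That value was 0.39 with the GC trend removed (adjusted p = 0.0742).

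Among called genes that averaged 1 CPM or more somewhere, the largest interactions included genes of skin. Krt17, Fcgbp, Serpinb5, Perp, Clca3a2 and Gabra3 led the genes higher with PD-L1 blockade, with values from 4.66 (Gabra3) to 6.52 (Krt17). None of these 6 stayed called without C0479 and C0484, and only Fcgbp and Gabra3 did with the GC trend removed. Leaving out 1 library lost the call of Serpinb5 in 16 of 40 fits and of Clca3a2 in 7. It lost that of Krt17 in 3, Fcgbp in 2 and Gabra3 in 1. Krt17, a keratin of skin appendages, had 0.033, 0.468 and 125 CPM in trap tumors, against 0.0328, 0.327 and 1.08 CPM in pdl1 tumors. It had 0.0, 0.1 and 0.256 CPM in trap-control tumors, against 0.0, 0.348 and 0.848 CPM in control tumors. The value of 125 CPM came from C0479, and without C0479 and C0484 the interaction of Krt17 was 2.01 (edgeR adjusted p = 0.234). It was 6.60 (adjusted p = 0.054) with the GC trend removed. The 6 keratinocyte genes summed to 47.2 to 2260 CPM in trap tumors, 88.5 to 236 CPM in pdl1 tumors, 46.6 to 212 CPM in trap-control tumors of set 1 and 74.4 to 199 CPM in control tumors, and C0479 held the highest sum. The 10 adipocyte genes summed to 37.1 to 1640 CPM in trap tumors, 48.8 to 215 CPM in pdl1 tumors, 33.6 to 92.4 CPM in trap-control tumors of set 1 and 51.5 to 88.0 CPM in control tumors, with the highest sum in C0484. No keratinocyte or adipocyte gene measured was at 0 throughout a group. Lpl, the lipase of fat tissue, was the 1 adipocyte gene called (2.28, adjusted p = 0.0333, lost without C0459, C0460, C0462, C0479 or C0484, and 2.17 with adjusted p = 0.0678 after GC removal) and Perp the 1 keratinocyte gene (6.17, SE 1.95, adjusted p = 0.0411, lost without any 1 of 13 libraries, and 6.15 with adjusted p = 0.0707 after GC removal). DESeq2 called 8 of the 10 adipocyte genes higher and none of the 6 keratinocyte genes. Of all 15183 genes tested it called 971 higher, and edgeR 678. Of 9 skeletal muscle genes edgeR and DESeq2 called none, with 0 at an unadjusted p under 0.05 in edgeR. Of the 9, 7 were called higher in trap minus pdl1 (15.8% of all genes were) and 8 in trap-control minus control (4.47% were). Their median interaction was -1.72, and it depended on the setting: without C0479 and C0484 it was -5.81 with 2 called lower, and with host tissue covariates 1.66 with 2 called higher. Muscle sums reached 5950 CPM in trap tumors (C0484), 347 CPM in pdl1 tumors, 16300 CPM in trap-control tumors of set 1 (C0463) and 404 CPM in control tumors. Without C0479 and C0484, 545 genes were called in the interaction, and Ccn3 had a value of 2.45 (adjusted p = 0.0232), Podn of 2.00 (adjusted p = 0.0324), Clec11a of 1.78 (adjusted p = 0.0206) and Dhtkd1 of 1.05 (adjusted p = 0.0232). At the other end, Depp1, Eno3, Hist1h2an, Cdh24, Prr7 and Hist1h2ao led the genes lower with PD-L1 blockade, with values from -1.50 (Depp1) to -0.93 (Hist1h2ao). Of these 6 only Depp1 and Cdh24 stayed called with the GC trend removed. The Eno3 call was lost without any 1 of 15 libraries, C0463 among them, with values from -1.29 to -0.31. That of Hist1h2ao was lost without any 1 of 7.

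The number of calls depended on the setting, as the plot of calls by setting shows. Without C0460, the trap-control library with the lowest share of structural RNA in set 1, 530 genes were called, and without C0479, 820. Without the 4 trap-control libraries of set 0, 1114 genes were called. A core of 143 genes, 51 higher and 92 lower, was called in each of 14 alternatives that used counts. The 14 leave out the fit of all 40 libraries with no set term. They include the fit without the 4 trap-control libraries of set 0, which held no set term either. Without each library in turn, 241 higher and 226 lower genes were called.

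**Figure D5:**
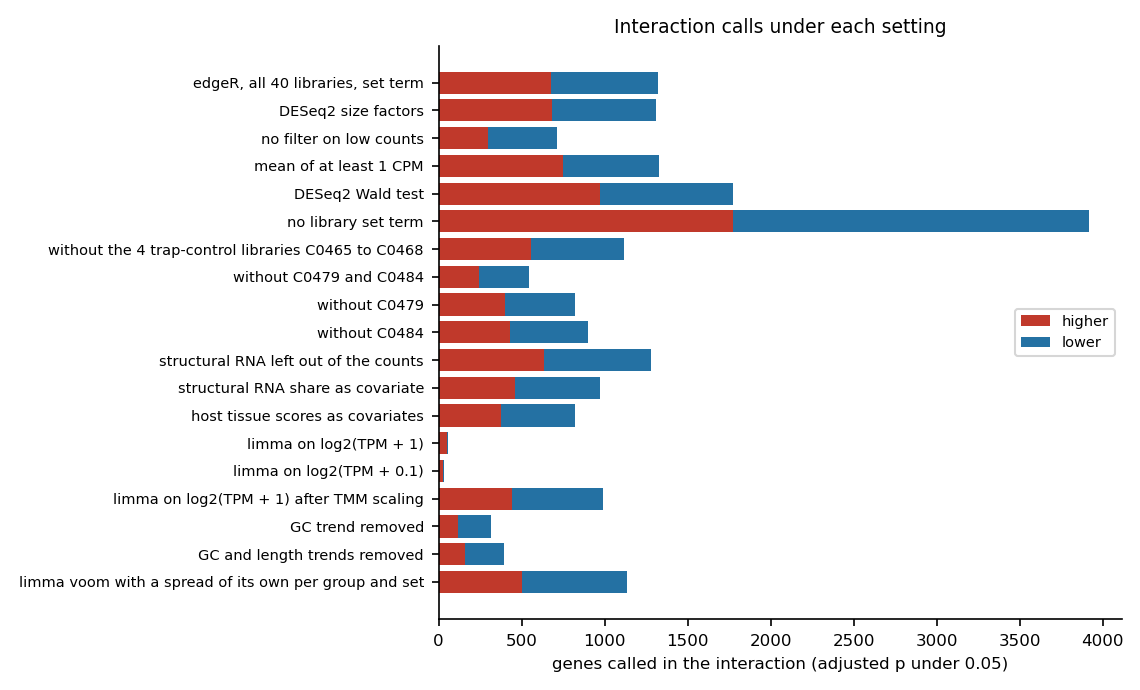
Genes called in the interaction (adjusted p under 0.05), higher and lower, under the reported fit and 18 alternative settings. The reported fit called 678 higher and 642 lower; removing the GC trend left 119 and 195, and TPM without a further scaling left 52 and 7 with a pseudocount of 1.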

How the data were processed

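Per the labels, RNA of snap-frozen tumors was depleted of ribosomal RNA and primed at random. RSEM 1.2.31, Bowtie2 2.3.1 and the build mm10 are named in the submitters' processing notes, without roles. The authors deposited expected counts, which share multi-mapped reads between genes (14.0% of values are not whole), and TPM per gene. GENCODE M21 gave symbols for 37607 of 39012 IDs (96.4%).

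Counts were rounded, TMM-scaled, filtered by filterByExpr and fitted by edgeR 4.0.16 in R 4.3.3 with 4 group means and the set term. Two-sided quasi-likelihood F tests were adjusted by Benjamini-Hochberg over 15183 genes, at a threshold of 0.05. SE is the absolute log2 value over the root of F. Median depth was 24018639 counts. Libraries of a group differed beyond counting noise (smallest chi-square per degree of freedom 8.91). The fit was tested on counts simulated from its own kind of model, with each gene's spread shared by all libraries. That test does not cover outlying tumors or a GC trend in the interaction.

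Alternatives used DESeq2 1.42.0, limma 3.58.1 on log2(TPM + 1) and log2(TPM + 0.1), other filters and scalings, covariates and left-out libraries. GC content and length came from GENCODE transcripts for 98.6% of genes, with a loess span of 0.3. The 40 gene lists and all choices were made with earlier results of these data known. Genes were named if called, above 1 CPM on average in any group and set, and annotated as more than a prediction, small RNA or pseudogene. Of these the text takes the 10 smallest p-values and 6 largest log2 values per direction. It adds at most 4 called members per list, and the TGF-β ligands, Tgfbr1, Tgfbr2, Cd274 and Pdcd1 whatever their values. The other genes were chosen after their values were seen, among them Gzmb, Prf1, Cd8a, Foxp3, Cxcl9, Irf7, C1qa and Col1a1. Some genes are not reported here. RefSeq held promoters for 16 of the 17 histone genes.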

Additional observations from a re-analysis of the deposited data

Results flagged for a closer look

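A test of the difference between the arms called 1320 genes, which is the interaction reported above. Single libraries were flagged as far from the rest of their group in 12 of 120 gene and group combinations checked (24 genes, 5 combinations of group and set). A rate of about 1 in 20 is only nominal here. The combinations share libraries, and some of the genes were picked for their values, so no excess over chance is claimed. In trap tumors C0479 held 38.0 CPM of Podn, where the other 9 had 3.54 to 18.7 CPM. It also held 4.22 CPM of Cish (others 0.956 to 2.33 CPM) and 30.2 CPM of Cd274 (others 6.84 to 17.6 CPM), and it is the tumor with the highest sum of keratinocyte genes. C0480, another trap tumor, held 89.7 CPM of Col11a1 (others 2.10 to 17.5 CPM). Among the trap-control tumors of set 1, C0462 held 10.6 CPM of Ccn3 (others 3.62 to 6.18 CPM), C0464 held 6.55 CPM of Col11a1 (others 0.634 to 2.33 CPM), and C0461 held 54.3 CPM of Rnf13 (others 45.4 to 47.8 CPM) and 56.5 CPM of Id3 (others 34.4 to 39.1 CPM). Among the trap-control tumors of set 0, C0465 held 1.60 CPM of Cish (others 0.880 to 0.971 CPM) and 24.8 CPM of Cd274 (others 7.51 to 8.94 CPM), and C0466 held 29.1 CPM of Tgfbr1 (others 36.2 to 37.3 CPM). In control tumors C0451 held 225 CPM of Lamp2 (others 155 to 189 CPM).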

How the results depend on the processing

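Interaction calls numbered 713 with no filter, 3920 with no set term, 545 without C0479 and C0484, 820 without C0479, 822 with host tissue scores as covariates, 59 and 33 with limma on log2(TPM + 1) and log2(TPM + 0.1), 314 with the GC trend removed and 396 with GC and length trends removed. DESeq2 size factors, a mean of at least 1 CPM, the DESeq2 Wald test, structural RNA left out or as a covariate, TPM after TMM scaling and voom kept the count within 1.5 times, at 973 to 1773. Trap minus pdl1 gave 1970 calls with no set term, 274 without C0479 and C0484, 1887 without C0479, 2362 without C0484 and 906 with host tissue covariates. Trap-control minus control gave 4213 with no set term, 7 and 3 on the TPM scales, 100 with GC removed and 124 with GC and length removed. Trap minus trap-control in set 0 gave 1 with DESeq2 size factors, 1 with a mean of at least 1 CPM and 134 with DESeq2. The histone count of 11 was 17 with no set term; 7 without C0484; 6 with no filter, without C0479, with the structural RNA share, with host tissue covariates, with TPM after TMM scaling and with voom; 5 without C0479 and C0484; 4 with GC or GC and length removed; and 0 on both TPM scales. The cause of these changes was not tested.

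Leaving out each library gave 530 (C0460) to 1904 (C0482) interaction calls, 1887 (C0479) to 5014 (C0482) for trap minus pdl1, 1029 (C0459) to 1915 (C0456) for trap-control minus control, 0 to 168 (C0482) for trap minus trap-control, and 3 (C0460) to 14 (C0453) histone genes.

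Of the named genes, none called in the reported fit changed sign. Tgfb2 (-0.10) turned to 0.11 with no set term, 0.01 without C0479 and C0484, 0.04 with the structural RNA share, 0.04 with host tissue covariates, and 0.02 and 0.10 on the TPM scales. Tgfbr2 (0.03) turned to -0.25 with no set term, -0.07 without C0479 and C0484, -0.01 without C0479, -0.02 without C0484, -0.05 with host tissue covariates, -0.03 with GC and length removed and -0.0041 with no filter. With no set term Cxcl9 and C1qa turned to -0.09 and -0.12. Leaving out each library gave Tgfb2 -0.25 to 0.11 and Tgfbr2 -0.05 to 0.08. No paired analysis was possible because each library number belongs to 1 mouse and no number is shared between groups.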

Other observations

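Families of gene symbols were counted after the values were seen, so they carry no test. Among all genes tested 4.47% were called higher and 4.23% lower in the interaction. After the GC trend was removed, 119 of 14964 genes were called higher and 195 lower. Of 342 genes whose symbol starts with Zfp, for zinc finger proteins, 50 were called higher and 4 lower. They had a median of 0.224 and a median transcript GC of 43.7%. With the GC trend removed 7 were called higher and 3 lower. Of 39 genes whose symbol starts with Psm, for proteasome subunits, none was called higher and 8 lower, with a median of -0.245 and a median GC of 49.7%. With the GC trend removed 5 of these were called lower. Of 55 genes whose symbol starts with Hist, 1 was called higher and 32 lower, and 1 and 5 with the GC trend removed.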
